A study of Ulmus pumila with 3 samples.

Results

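MicroRNAs (miRNAs) of Siberian elm roots after strong, long salt stress were set against those of unstressed roots. The salt library was made from roots of 30-day-old wild-type Ulmus pumila seedlings kept at 200 mM NaCl for 24 h, and the control library from roots of seedlings of the same age and genotype that received no salt. The series holds 3 small RNA libraries, and the library at 50 mM NaCl for 6 h enters only as a value beside the other 2. Members were all names with at least 20 counts in the 200 mM or the control library, joined by name and sequence, which gave 168 of the 309 names. Among the 168, 132 carry the number of a family known from other plants (31 families). The other 36 were called new by the authors, and a name such as new-11-3p gives the hairpin's number and the arm. With 1 library per condition there is no replicate check and no test between conditions, and every interval below is a 95% interval of counting error between these libraries. Salt dose and time differ together, the labels do not say how many seedlings a library pooled, and fewer cells of a type cannot be told apart from less miRNA per cell.

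A plant miRNA is cut from the stem of a hairpin transcript as a duplex of a 5p and a 3p strand. One strand is usually kept by an ARGONAUTE protein, which it guides to matching transcripts, and the other, the passenger or star strand, is mostly lost. Many conserved families are best known for keeping transcription factors of growth, root branching and phase change in check, and others for phosphate, sulfate and copper supply. The roles given below come from Arabidopsis thaliana and other model plants, and no target transcript was measured here.

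The sequences of the names that stood highest over control are shown first, since they carry the clearest differences and mostly belong to new hairpins. Bases 2 to 8 (the seed) are in capitals, and all sequences are the deposited ones, 5′ to 3′.
new-11-3p: uCAUAUUUguuucacugccuguug
new-11-5p: aCAGGCGGuggaucaaauaugaau
new-13-5p: uCAUGGAUauauuucucgaaau
new-1-3p: gAAGCCUUaaagggagagugg
miR529a: aGAAGAGAgagaguacagcuu
miR162e: uUGAUAAAccucugcauccag
No seed is shared among these 6. The 2 arms of hairpin 11 are 24 nt long, the length class that in plants mostly comes from the siRNA pathway of DNA methylation rather than from most classical miRNA genes.

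Lower names of the miR160, miR164 and miR171 families are shown with new names of related sequence. These families hold 18 of the 28 lower names, but 7 of the 17 groups left when overlapping names of near-equal counts are taken as 1. Of the 168 compared names, 6 are of miR160, 8 of miR164 and 11 of miR171.
miR160d: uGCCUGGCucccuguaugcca
miR160a: uGGCAUACagggagccaggca
new-38-5p: cCUGGCUCccuguaugccauc
miR164b: uGGAGAAGcagggcacgugaa
miR164d: uGGAGAAGcagggcacgugca
miR164a: uGGAGAGGcagggcacaugcu
miR171a: uUGAGCCGcgucaauaucucc
miR171e: uUGAGCCGcgucaauaucucu
miR171k: uUGAGCCGcgccaauaucaca
new-18: gUGCAAUUcuccuuuggcagc
miR399b: uGCCAAAGgagaauugcccug
new-24: uCAUGCUAucccuuuggaug
The 34 names past the rule of size carry 23 different seeds, and all 168 compared names carry 89. The seed of miR164b is that of 7 lower names, miR164b to miR164h, while miR164a, with another seed, was not past the rule. new-18 is complementary to miR399b over 19 nt with 1 mismatch, and to the rare miR399f without one. The sequence of new-38-5p shares 20 nt with miR160b without a mismatch. new-24 matches the rare miR393e over 20 nt with 1 mismatch. miR160a is the complement of miR160d over 21 nt with 0 mismatches, and their counts were near-equal in each library.

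The level of a name is its count per 1000000 counts of all names in its library (RPM), with no correction for length, since each read is 1 small RNA. The counts of all names summed to 545587 in the 200 mM library and 509280 in the control library, a difference of 36307 counts. miR159a alone differed by 50272 counts, with 130976 in the 200 mM library against 80704 in the control library. A single name thus differed by more than the totals did, and 123 of the 168 compared names had a ratio below 1, with a median log2 ratio of −0.40. The median moved up by 0.34 on the log2 scale with TMM or median-of-ratios scaling factors and by 0.15 with totals that left out miR159a, so levels are read against it.

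The rule of size asked for a ratio of 2 or more, up or down, and for an interval off 1. By this rule 6 of 168 names were higher at 200 mM (3.57%) and 28 were lower (16.7%). All 6 higher names and 18 of the 28 lower ones were also called under each of the other 3 scalings, where TMM factors gave 10 higher and 20 lower names. Median-of-ratios factors gave 10 higher and 18 lower, and totals without miR159a 9 higher and 25 lower. Low counts carried many of the calls: 20 of the 28 lower names and 2 of the 6 higher ones had fewer than 100 counts in both libraries. With near-equal names joined, 6 groups were higher and 17 held the 28 lower names.

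**Figure D1:**
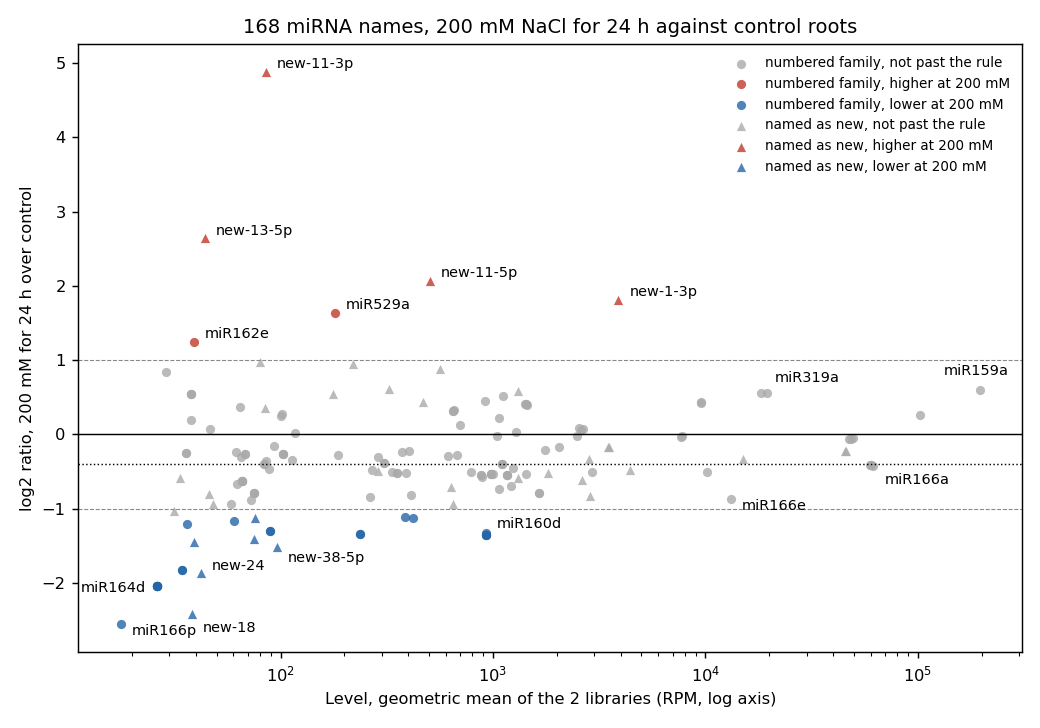
Each point is 1 of 168 miRNA names, with its geometric mean level in the 2 libraries (RPM, log axis) against its log2 ratio of 200 mM for 24 h over control. Circles are numbered families and triangles new names, colours mark the calls, dashed lines the ratio of 2 in either direction and the dotted line the median of −0.40. The 6 higher names, 4 of them new, lie above the upper dashed line, and the 13 most counted names lie within the dashed lines.

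Both arms of hairpin 11 were higher, and its 3p arm had the highest ratio of all compared names. This arm had 253 counts in the 200 mM library against 8 in the control library, a ratio of 29.5 (14.8 to 69.1), and 9 counts in the 50 mM library. Its 5p arm had 562 counts at 200 mM against 125 in the control, a ratio of 4.20 (3.45 to 5.14), and 124 counts at 50 mM. Both arms were thus high in the 200 mM library alone, and near their control counts in the library at 50 mM. The name new-13-5p followed the same order at a lower level, with 60 counts at 200 mM against 9 in the control (ratio 6.22, 3.07 to 14.3) and 10 at 50 mM. Its 3p arm was rare, with 3 counts against 2.

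The most abundant of the higher names was new-1-3p, with 3986 counts in the 200 mM library against 1057 in the control library, a ratio of 3.52 (3.29 to 3.77), and 889 at 50 mM. miR529a belongs to a family that, like miR156, targets SPL transcription factors, which promote the change from juvenile to adult growth. It had 173 counts at 200 mM against 52 in the control (ratio 3.11, 2.27 to 4.32) and 78 at 50 mM, so the 3 libraries line up in the order of dose. miR162e is a rare member of the family that targets the mRNA of DCL1, the enzyme that cuts miRNAs from their hairpins. It had 33 counts at 200 mM against 13 in the control, a ratio of 2.37 (1.21 to 4.91), and 19 at 50 mM. Its common relative miR162a-3p, with 6029 counts against 4180, had a ratio of 1.35 (1.29 to 1.40). Relative to miR162a-3p, miR162e had a ratio of 1.76 whose interval includes 1 (0.901 to 3.65), so the 2 were not told apart by these counts.

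**Figure D2:**
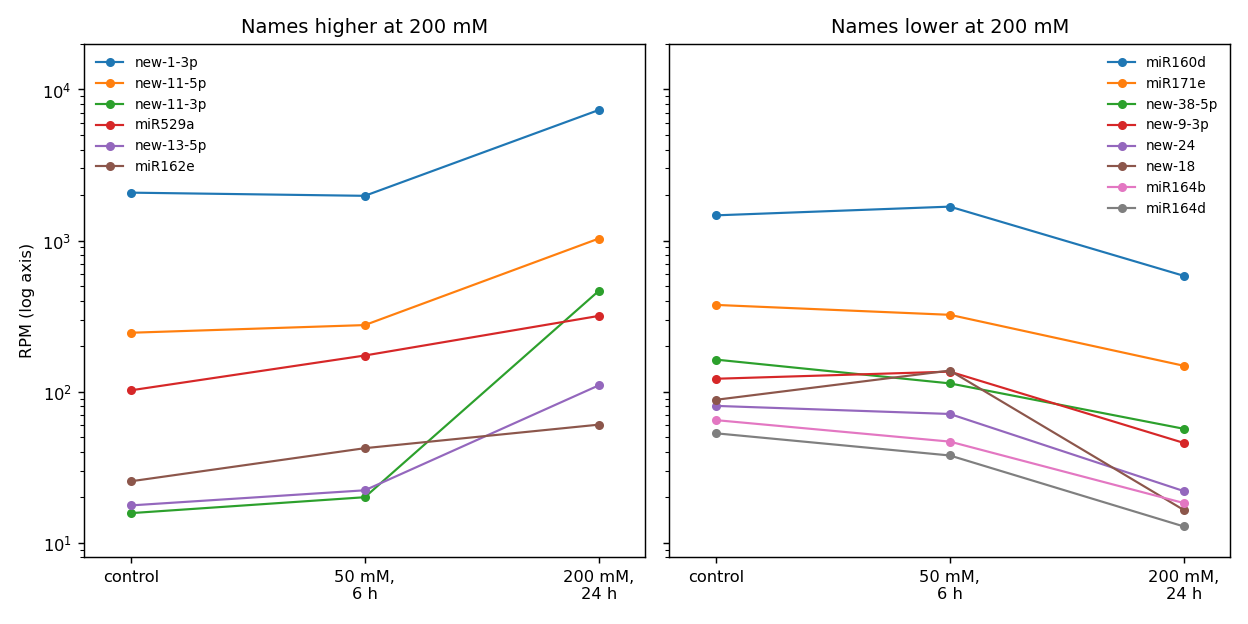
Levels (RPM, log axis) of the 6 higher names and 8 of the 28 lower names in the control, 50 mM and 200 mM libraries, 1 library each. The arms of hairpin 11, new-13-5p and new-1-3p are near their control levels at 50 mM and high at 200 mM. miR160d and new-18 are higher at 50 mM than in the control and lowest at 200 mM.

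Among the lower names, the largest difference on at least 40 control counts belonged to new-18, which is complementary to miR399 names. It had 9 counts in the 200 mM library against 45 in the control library, which is 5.36-fold lower (2.59 to 12.5), but 62 counts at 50 mM. miR399b, its near-complement, had 41 counts against 49 (ratio 0.781, 0.503 to 1.21), and miR399f had 0 against 5. new-24 had 12 counts against 41, which is 3.66-fold lower (1.89 to 7.65), with 32 at 50 mM. new-38-5p, which overlaps miR160b, had 31 counts against 83, 2.87-fold lower (1.88 to 4.48), with 51 at 50 mM. miR166p, written as the passenger-side sequence of its family, was 5.89-fold lower (2.001 to 23.5) on only 4 counts against 22.

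The other lower new names were 1 arm each of hairpins 9, 25 and 21. new-9-3p had 25 counts against 62 (2.66-fold lower, 1.65 to 4.41), new-25-5p had 13 against 33 (2.72-fold lower, 1.39 to 5.63) and new-21-5p had 28 against 57 (2.18-fold lower, 1.36 to 3.56). The last was not past the rule with TMM factors, at 1.73-fold lower, and its 3p arm had 0 counts against 13. Among the remaining numbered names, miR156e had 13 counts against 28, miR5072 22 against 46 and miR8175 155 against 317 (2.19-fold lower, 1.80 to 2.67). These 3 names did not stay past the rule with TMM factors, with ratios of 0.547, 0.564 and 0.576.

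Summed over its names, 1 of 31 families was higher by the same rule (3.23%) and 4 were lower (12.9%). Family intervals are as wide as that of the most counted name, since names of a family share reads. The median log2 ratio over families was −0.34, and 12 families stood above a ratio of 1 and 19 below it. The interval lay above 1 for 6 families and below 1 for 15, and included 1 for 10. miR5139, miR8155 and miR1511, all above 1, have the same counts and are not separate values. miR529 was the higher family, at a ratio of 3.12 (2.28 to 4.34) on 174 counts against 52. The lower families were miR164, miR160, miR5072 and miR8175, and with TMM or median-of-ratios factors miR164 alone stayed past the rule. The call of miR164 ended instead when the most counted name stood for the family, at 0.630 of control (0.372 to 1.05).

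**Figure D3:**
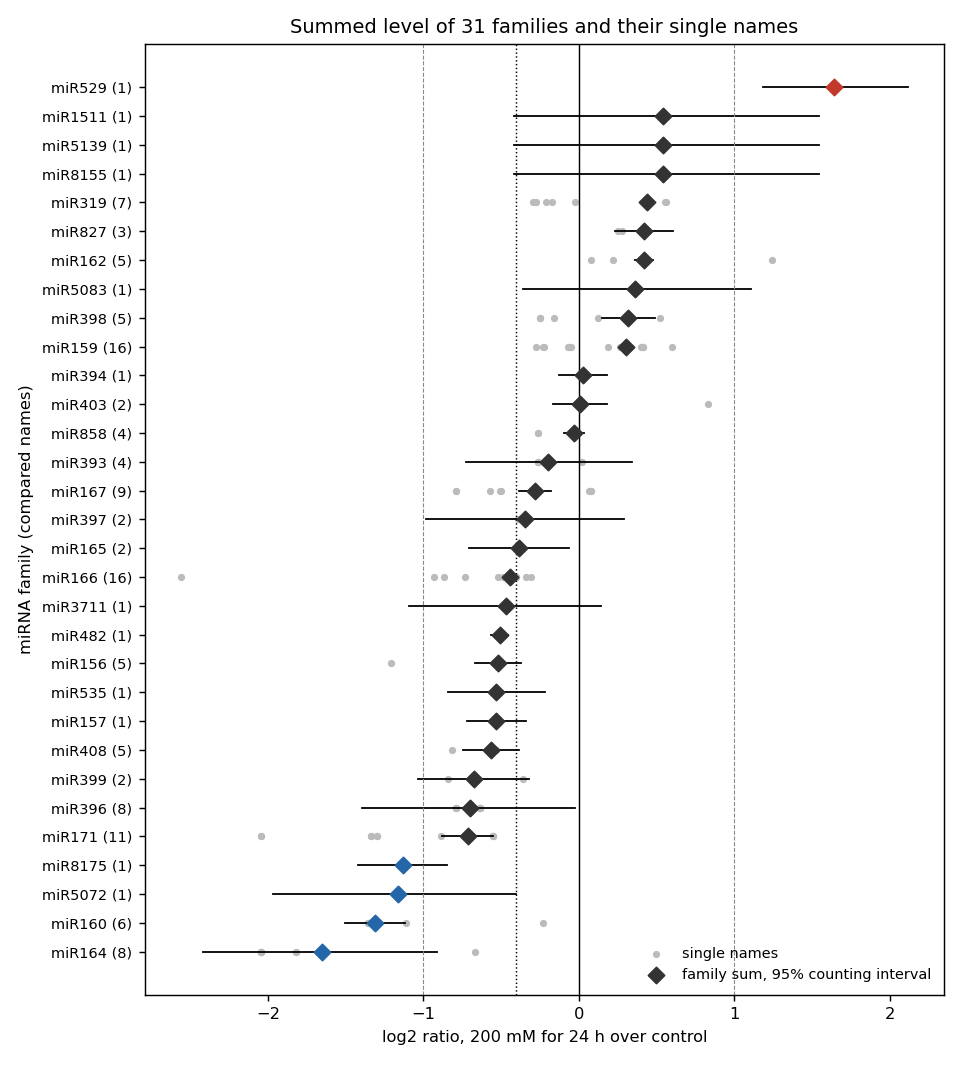
Log2 ratio of 200 mM over control for the summed counts of 31 families (diamonds, bars are 95% counting intervals), with their compared names as grey points and the number of names in brackets. Solid, dashed and dotted lines mark a ratio of 1, a ratio of 2 in either direction and the median of all names. miR529 lies right of the dashed line and miR164, miR160, miR5072 and miR8175 left of it. The names of miR166, miR171 and miR164 have the widest ranges. The lowest name of miR166, miR166p, has 4 counts against 22, and in miR164 no interval relative to miR164a excludes 1.

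The families tied to auxin and lateral root formation held 12 lower names of 27 and no higher one, against 16.7% lower and 3.57% higher over all compared names. The 12 names are 4 groups of near-equal counts, 2 of miR160 and 2 of miR164. The median log2 ratio was −0.79 against −0.40 for all names. miR160 targets repressing auxin response factors (ARF10, ARF16 and ARF17 in Arabidopsis) that act in the root cap and in root branching. miR160d, its most counted name in the 200 mM library, had 319 counts in the 200 mM library against 748 in the control library, 2.51-fold lower (2.2005 to 2.87), and 754 at 50 mM. miR160a, miR160b and miR160c each had 316 counts against 755 (2.56-fold lower, 2.24 to 2.93) and 747 at 50 mM, and miR160e had 143 against 289 (2.17-fold lower, 1.77 to 2.66) and 298 at 50 mM. miR160f differs from the others within its family: it had 31 counts against 34, and relative to miR160a its ratio was 2.18 times as high (1.27 to 3.72). The family as a whole stood at 0.404 of control (0.353 to 0.461), and at 0.510 with TMM factors. With these factors miR160a, miR160b and miR160c stayed past the rule, while miR160d, at 0.503, and miR160e, at 0.583, did not.

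miR164 restrains NAC factors such as NAC1 and CUC2, which act in lateral root initiation and in organ boundaries. All 8 of its names were below control, as were 123 of the 168 compared names. The 8 names rest on few reads: 82 counts summed over names at 200 mM against 241 in the control. miR164b had 10 counts against 33 (3.54-fold lower, 1.70 to 8.04) and miR164d 7 against 27 (4.13-fold lower, 1.76 to 11.2). The 7 lower names overlap in sequence and form only 2 groups of near-equal counts. miR164a, the most counted name, had 27 counts against 40, a ratio of 0.630 (0.372 to 1.05), which is not past the rule. Relative to miR164a, miR164b had a ratio of 0.449 whose interval includes 1 (0.169 to 1.14), so the 2 kinds of sequence were not told apart by these counts.

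miR167, which targets the activating factors ARF6 and ARF8, had no name past the rule and parted into subgroups. miR167b had 1482 counts against 1311 and a ratio of 1.06 (0.979 to 1.14), while miR167e had 684 against 1106 and a ratio of 0.577 (0.524 to 0.636). miR393 acts on the auxin receptors TIR1 and AFB. Its names summed to 219 counts against 234, at 0.874 of control (0.604 to 1.27). The direction of both family sums turned with TMM and with median-of-ratios factors, to ratios of 1.04 for miR167 and of 1.103 and 1.104 for miR393.

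Among phase-change families, miR156, miR157 and miR535 stood between 0.692 and 0.697 of control while miR529 stood above 3. miR156, which restrains SPL factors in young plants, had 1432 counts summed against 1917, a ratio of 0.697 (0.629 to 0.772). miR157 had 0.692 (0.607 to 0.790) and miR535 0.693 (0.558 to 0.859), and their most counted names were miR156a, at 653 counts against 879, miR157a-5p, at 398 against 543, and miR535a, at 153 against 203. Of the 8 compared names of the list 1 was higher, miR529a, and 1 lower, miR156e, with a median log2 ratio of −0.52. These counts stand beside 3.57% higher and 16.7% lower over all compared names. miR157a-5p has the same counts as miR156b in each library, so miR156 and miR157 are not separate values. With near-equal names joined, the rest of miR157 stood at 1.199 of control. That value rests on miR157b, with 9 counts against 7, and miR157a-3p, with 1 against 0. Both are under the count minimum, so it gives no direction for the family.

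The growth transcription-factor families held most of each library, and none of their 61 names was higher while 7 were lower, against 3.57% higher and 16.7% lower over all compared names. The median log2 ratio was −0.40, as for all names. miR159 and miR319, which are close in sequence and target GAMYB-like MYB factors and TCP factors, filled 55.7% of the counts in the 200 mM library (exact binomial interval 55.6% to 55.9%) against 44.7% in the control library (44.6% to 44.9%). miR165 and miR166, which target HD-ZIP III factors of root vascular and meristem patterning, filled 22.6% (22.5% to 22.7%) against 30.6% (30.5% to 30.7%). The most counted miRNA groups of the root thus stood in a different proportion in the 2 libraries, with reads shared between names entering more than once. Summed over names, miR159 had 275192 counts against 207852 (ratio 1.24, 1.23 to 1.25), and miR319 had 28955 against 19949 (ratio 1.35, 1.32 to 1.39). miR166 had 122815 against 155437 (ratio 0.738, 0.726 to 0.749), and miR165 294 against 358 (ratio 0.767, 0.612 to 0.959). With near-equal names joined, the ratios of miR159 and miR166 were 1.19 and 0.634.

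The 10 most counted names of the 200 mM library held 74.7% of its counts, and the 10 most counted of the control library 73.05% of that library. The first was miR159a, at 240064 RPM against 158467 RPM, a ratio of 1.51 (1.502 to 1.53), and 180783 RPM at 50 mM. miR159b followed with 61226 counts against 47505 (ratio 1.203, 1.19 to 1.22). miR166a, miR166b, miR166c and miR166d stood between 0.744 and 0.754 of control, and miR159c, miR159d and miR159e between 0.955 and 0.964. new-1-5p closed the list at 0.854 of control, so none of the 10 was past the rule. Without miR159a the difference in the share of the 10 most counted names, 200 mM minus control, was −1.51 points in place of 1.63.

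miR171, which targets the GRAS factors that keep root and shoot meristems undifferentiated, had all 11 compared names below control and 6 past the rule. Several of the 11 overlap with near-equal counts. Over all compared names, 123 of 168 were below control and 16.7% were lower by the rule. miR171a had 523 counts against 791 (ratio 0.617, 0.552 to 0.690) and miR171e and miR171f each 81 against 191 (ratio 0.396, 0.301 to 0.516). The 20 nt miR171g and miR171h each had 31 against 71, 2.45-fold lower (1.59 to 3.87). The 21 nt miR171g and miR171k each had 7 counts against 27, 4.13-fold lower (1.76 to 11.2), and 27 at 50 mM. The 6 names are 3 groups of near-equal counts. With TMM factors 4 of the 6 names stayed past the rule, and 2 with median-of-ratios factors. miR396, which restrains growth-regulating factors (GRF), had 8 names with ratios between 0.579 and 0.645 on 31 or fewer counts at 200 mM, none past the rule. miR394, which targets the F-box gene LCR, had 708 counts against 649, a ratio of 1.02 (0.914 to 1.14).

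Nutrient families stood on both sides of control with none of 5 names past the rule and a median log2 ratio of 0.25. Over all compared names 3.57% were higher and 16.7% lower, with a median log2 ratio of −0.40. miR827, of the phosphate transport pathway, had 705 counts summed against 492, a ratio of 1.34 (1.18 to 1.52). miR399, which lowers the PHO2 ubiquitin conjugase when phosphate is short, had 186 against 277, a ratio of 0.627 (0.489 to 0.801). At 50 mM both stood above control, at 1.77 and 1.84, a comparison that shares the control library.

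Copper families had 12 compared names, none past the rule, against 3.57% higher and 16.7% lower over all compared names. Their median log2 ratio was −0.39, beside −0.40 for all names. miR398a, whose family targets copper/zinc superoxide dismutase mRNAs, had 732 counts at 200 mM against 476 in the control (ratio 1.44, 1.28 to 1.61) and 252 at 50 mM. miR398b had 399 counts against 342, a ratio of 1.09 (0.940 to 1.26). The miR408 family, of plantacyanin and laccase control, stood at 0.676 (0.598 to 0.765) with 1966 counts against 2714, and miR397, of laccase control, at 0.788 (0.506 to 1.22). The copper families stood on both sides of control, miR398 being at 1.25 (1.11 to 1.40) when summed.

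In the small RNA pathway, 1 of 7 names was higher, miR162e, against 3.57% of all compared names, and the median log2 ratio was 0.43. The miR162 family had 12743 counts summed against 8900, a ratio of 1.34 (1.28 to 1.39). AGO2 mRNA is the target of miR403, which had 590 counts against 548, at 1.005 of control (0.892 to 1.13). miR482, a 22 nt family that targets NBS-LRR disease-resistance genes, had 4643 counts against 6166, a ratio of 0.703 (0.676 to 0.730). miR858, which targets MYB activators of flavonoid synthesis, had 8420 against 8035, a ratio of 0.978 (0.936 to 1.02), and turned to 1.24 with TMM factors. Neither miR482 nor any of the 4 names of miR858 (median log2 ratio −0.15) was past the rule. Over all compared names 3.57% were higher and 16.7% lower.

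Numbered names whose origin as miRNAs is uncertain had few counts, and 2 of 6, miR5072 and miR8175, were lower, against 16.7% of all compared names, with a median log2 ratio of 0.04 over the list. Their deposited sequences are shown because both end in CCA, the letters found at the 3′ end of mature tRNAs.
miR5072: cGAUUCCCcagcggagucgcca
miR8175: gAUCCCCGgcaacggcgcca
Of all 309 names 13 (4.21%) end in these letters, miR160d among them, and no tRNA sequence was searched. miR5139, miR8155 and miR1511, which overlap in sequence, had the same 25 counts against 16, which is 1.46 of control (0.749 to 2.92). miR3711 had 41 against 53 (ratio 0.722, 0.468 to 1.11) and miR5083, of no list, 40 against 29 (ratio 1.29, 0.779 to 2.15).

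Names of the same family that differ by 1 or a few bases at the 3′ end did not always have the same ratio, and such contrasts within a family do not depend on how the libraries are scaled. The pairs shown, with their seeds in capitals, were chosen after their values were seen, as pairs with unequal ratios. Other pairs, miR319a and miR319b, miR162a-3p and miR162b, and miR858a and miR858b, had relative ratios of 1.01, 1.00 and 0.994, with intervals that include 1. The sequences of each of these pairs overlap. The miR162 and miR858 pairs also have near-equal counts in each library, which by itself puts their relative ratio near 1. They are therefore no measure for the unequal pairs.
miR159a: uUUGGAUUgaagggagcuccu
miR159c: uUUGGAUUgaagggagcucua
miR319a: uUGGACUGaagggagcuccc
miR319c: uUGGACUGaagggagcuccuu
miR166b: uCGGACCAggcuucauucccc
miR166e: uCGGACCAggcuucauucccu
miR167b: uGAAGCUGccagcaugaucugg
miR167e: uGAAGCUGccagcaugaucuu
miR398a: uGUGUUCUcaggucgccccug
miR398b: uAUGUUCUcaggucgccccug
Each pair but miR398 shares its seed. miR398a and miR398b differ inside it.

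Relative to miR159a, every other miR159 name had a ratio below 1, and the interval excluded 1 for 14 of the 15. miR159c had 26560 counts in the 200 mM library against 25716 in the control library, so relative to miR159a it stood at 0.636 (0.624 to 0.649). miR159f to miR159i, which differ from miR159a in its first base or lack it, had relative ratios between 0.870 and 0.878. All of these but miR159g also differ from miR159a at the 3′ end. The miR319 family showed 2 levels: miR319a and miR319b had close ratios (relative ratio 1.01, 0.966 to 1.05), while miR319c to miR319g stood between 0.555 and 0.670 of miR319a. All 5 of those intervals excluded 1. miR319a had 12886 counts against 8194 and miR319c 1343 against 1275.

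In miR166, the interval relative to miR166a included 1 for 12 of the 15 other names, the exceptions being miR166e, miR166g and miR166p. miR166e had 5309 counts against 9035 and a ratio of 0.737 relative to miR166a (0.710 to 0.765), although it differs from miR166b by its last base alone. In the 50 mM library miR166e had 4982 counts. miR167b, miR167c and miR167d stood between 1.48 and 1.496 relative to miR167a, and miR167e at 0.816 (0.723 to 0.921). miR398b stood at 0.759 of miR398a (0.628 to 0.917), and miR171e at 0.641 of miR171a (0.477 to 0.857). Reads with a mismatch may be counted under several of these names, and the number of mismatches the authors allowed is not stated in the labels or headers.

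**Figure D4:**
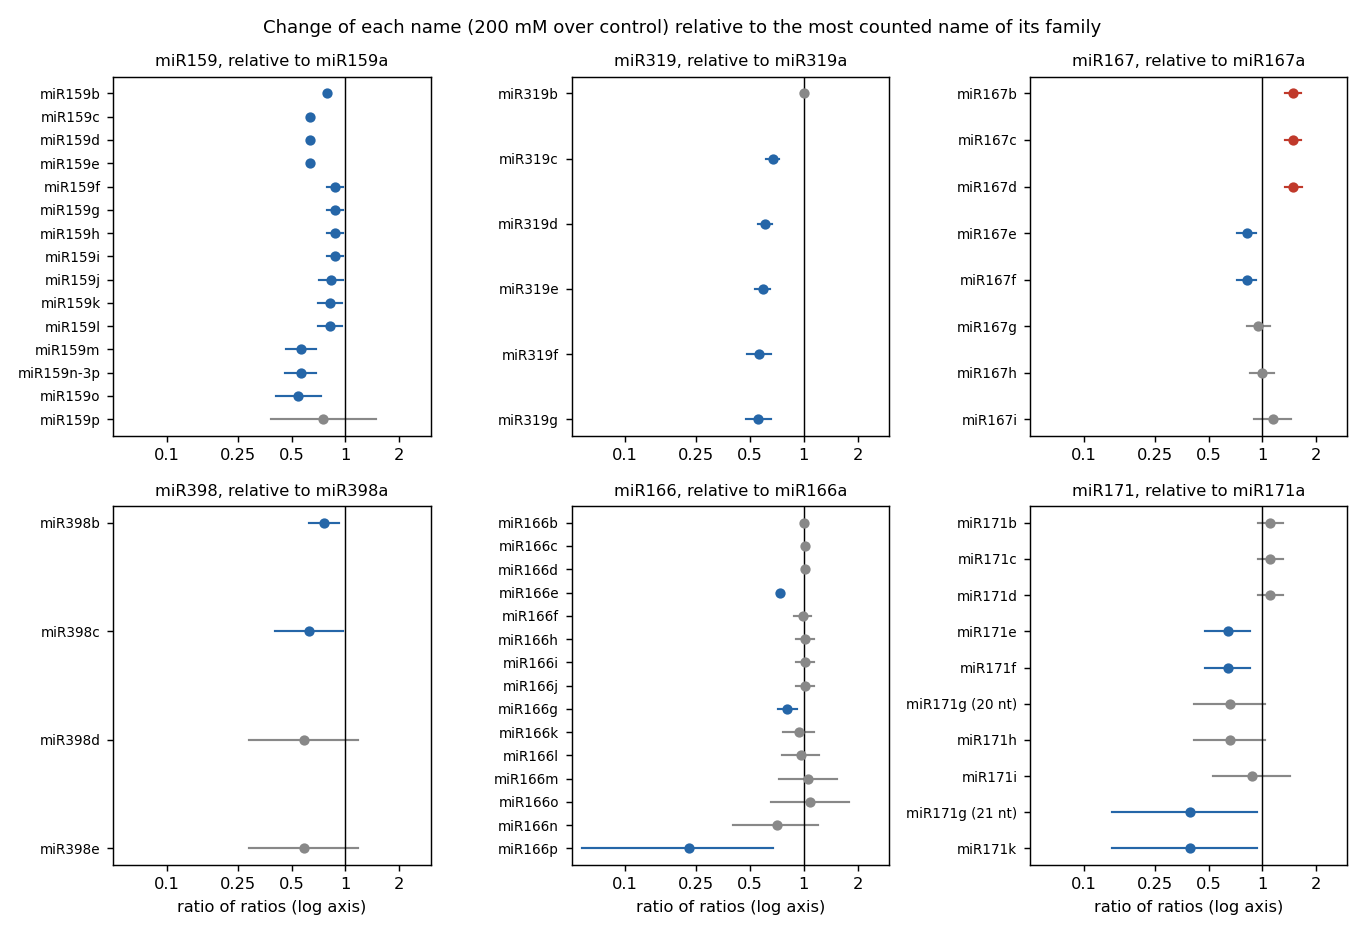
For 6 families, the ratio of 200 mM over control of each name divided by that of the most counted name of its family (log axis), with 95% intervals of counting error. Blue names lie below 1, red names above 1 and grey intervals include 1. miR319c to miR319g lie below miR319a and miR319b, and miR167b to miR167d above miR167a.

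Both arms were compared for 10 of the 24 new hairpins with 2 named arms, and for 7 of these 10 the arms had unequal ratios with an interval that excludes 1. Hairpins 1 and 15, and likewise hairpins 7 and 25, hold complementary abundant arms of near-equal counts, so the 10 are not all separate. The share of an arm in its own hairpin is again free of the totals. In hairpin 11 the 3p arm made up 31.0% of the reads of both arms in the 200 mM library against 6.02% in the control library, and 6.77% at 50 mM. Its ratio of 3p to 5p shifted 7.03-fold (3.39 to 16.9) between the 200 mM and control libraries. In hairpin 1 the 3p arm made up 14.7% against 4.02%, while new-1-5p had 23086 counts against 25228. The ratio of 3p to 5p of hairpin 1 shifted 4.12-fold (3.84 to 4.42). Hairpin 9 went the other way, with its 3p arm at 2.76% against 10.2%, as new-9-5p had 880 counts against 546 and new-9-3p 25 against 62. Its ratio of 5p to 3p shifted 3.997-fold (2.44 to 6.72). For hairpins 1, 15, 7 and 25 it is not stated which strand the reads of the abundant arm came from, and the intervals of their shifts do not cover this.

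The sequences of these arms show how far they are each other's passenger strands.
new-9-5p: uGCAUUUGguuuaguagcuca
new-9-3p: aGCUACUAagccaaauacaugaga
new-1-5p: aCUCUCCCauuaaggcuucug
new-15-3p: gAAGCCUUaaugggagaguga
new-15-5p: aCUCUCCCuuuaaggcuucuu
The arms of hairpin 9 are complementary over 19 nt with 2 mismatches. new-1-3p is complementary to new-15-5p over 19 nt with no mismatch, yet they had unequal counts, 3986 against 116 at 200 mM and 1057 against 74 in the control. new-1-5p and new-15-3p, complementary over the same length, had near-equal counts, 23086 against 22975 at 200 mM and 25228 against 25137 in the control. These 2 are not read here as separate measurements. The strand of new-1-3p matches that of new-15-3p over 21 nt with 2 mismatches, and their counts differed.

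The other hairpins had smaller shifts between arms. new-8-3p made up 17.7% of hairpin 8 against 11.3% in the control, and new-7-3p 12.5% of hairpin 7 against 19.6%. In hairpin 25 the rarer 5p arm stood at 0.717% against 1.72%, and in hairpin 15 the ratio of 5p to 3p shifted 1.72-fold (1.27 to 2.33). In hairpins 2, 3 and 5 the interval of the shift included 1, with both arms on the same side of control in each. new-2-3p (304 RPM against 157) lies inside the sequence of miR159a without a mismatch in its 20 nt, and was just under the rule at a ratio of 1.94 (1.47 to 2.56).

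**Figure D5:**
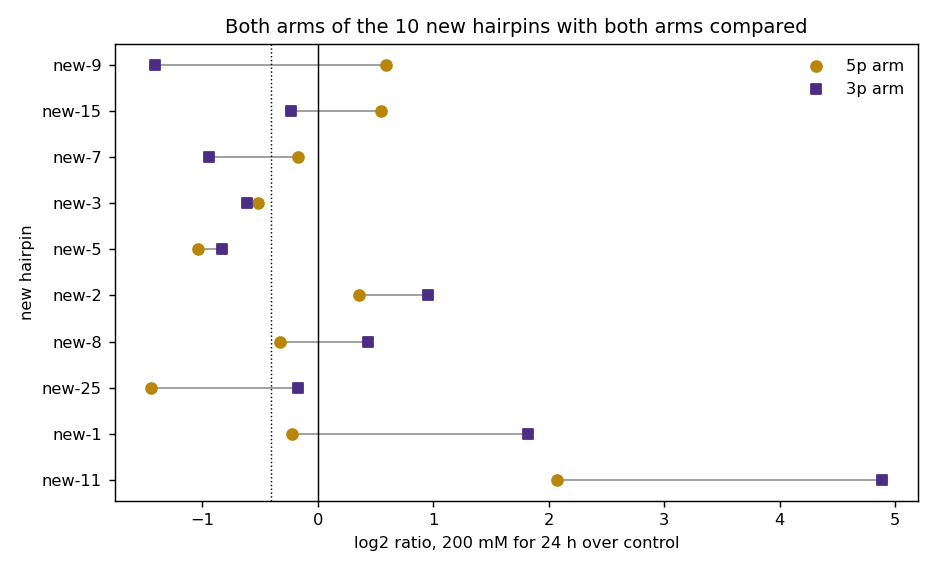
Log2 ratio of 200 mM over control for the 5p arm (circles) and the 3p arm (squares) of the 10 new hairpins with both arms compared, ordered by the shift between arms. The solid line is a ratio of 1 and the dotted line the median of all compared names. Both arms of new-11 lie right of 2 on the log2 scale, and the arms of new-9 lie on opposite sides of 0.

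By length, sequences of 21 nt took 75.3% of the counts in the 200 mM library (75.2% to 75.5%) against 69.8% in the control library (69.7% to 69.9%). Those of 20 nt took 16.9% against 20.05% and those of 22 nt 1.74% against 2.29%. The class of 24 nt took 0.309% (0.294% to 0.324%) against 0.189% (0.177% to 0.201%), and without hairpin 11 it took 0.159% against 0.163%. Hairpin 11 therefore carried the difference of that class. Names that begin with U, the first base that AGO1 prefers, took 81.7% against 78.2%. New names took 13.2% against 15.05%, although 4 of the 6 higher names are new. Leaving out miR159a moved these differences, 200 mM minus control, to 3.41 points from 5.52 for 21 nt, to 0.182 from 0.120 for 24 nt, to 1.75 from 3.44 for U and to −0.488 from −1.83 for new names.

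New 24 nt names other than hairpin 11 included new-37, with 418 counts in the 200 mM library against 212 in the control library, a ratio of 1.84 (1.56 to 2.18) just outside the rule. new-22, of 23 nt, had 61 against 29, a ratio of 1.96 (1.24 to 3.17), also just outside. On the lower side the nearest names inside the rule were miR160e at 2.17-fold lower, new-21-5p and miR8175, and the nearest outside were new-7-3p (1.92-fold lower), new-6-5p and new-5-5p, whose ratio of 0.487 had an interval that includes 1. At the count minimum the nearest names inside were miR398d, miR398e and miR403b, at 20 to 21 counts, and the nearest outside miR399c and new-31, at 19, and new-12-3p, at 18.

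The 141 names under the minimum held 0.0770% of the counts in the 200 mM library against 0.110% in the control library. Of these, 15 were listed in the 200 mM library alone of the 2, with at most 3 counts, and 27 in the control library alone, with at most 13. A name absent from a library had no counts there, which allows an expected level of up to 3 counts. That is 5.50 RPM in the 200 mM library and 5.89 RPM in the control library. Every compared name was listed in both libraries.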

How the data were processed

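Small RNA libraries were made from Trizol RNA of roots with the NEBNext kit for small RNA and sequenced on Illumina, per the labels' protocols. How reads were trimmed, aligned and assigned to strands, and with which reference, is not stated in the labels or headers. The read counts deposited by the authors are whole numbers for each name, per the file headers. The values headed TPM equal, on every name, counts per 1000000 of the table's sum and are called RPM here, as deposited by the authors. Totals are sums over names, not sequencing depth, which limits what small counts can show. Groups came from the sample descriptions.

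Ratios of RPM carry exact conditional binomial (Clopper-Pearson) 95% intervals, shares exact binomial ones, and ratios of ratios the conditional interval of the odds ratio, computed in Python 3.11.15 with scipy 1.17.1. They cover counting error only, and PCR copies are not independent molecules. Joined names overlap by 16 nt (either strand, up to 2 mismatches) and have counts within 5% or 3 reads in all 3 libraries, which left 201 names. Alternative scalings used TMM (edgeR 4.0.16) and median-of-ratios factors (DESeq2 1.42.0) over the 2 libraries.

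Named were all names past the rule (in full for up to 12 in each direction, ranked by how far the interval lies from 1, and by family for the others), every family with a compared name, the most counted names, both arms of called hairpins and the names nearest to the thresholds. Other names, such as those contrasted within families, were chosen after their values were seen. Members and family lists were chosen with earlier results of these data known. The name miR171g stands for 2 sequences, of 20 and 21 nt, kept apart here.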

Additional observations from a re-analysis of the deposited data

Results flagged for a closer look

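new-18 and new-21-5p stood on opposite sides of the control library in the salt libraries, a difference that was not tested and that rests on the shared control. For new-18 the ratio to control was 0.187 (0.0802 to 0.387) at 200 mM for 24 h and 1.56 (1.05 to 2.34) at 50 mM for 6 h. Its counts were 9 at 200 mM and 62 at 50 mM, and 45 in the control. For new-21-5p the ratios were 0.459 (0.281 to 0.733) and 2.19 (1.57 to 3.07), on 28 and 110 counts against 57. Among names under the count minimum, new-31 stood above control, with 19 counts at 200 mM against 5 and a ratio of 3.55 (1.28 to 12.2), and 6 counts at 50 mM.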

How the results depend on the processing

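No paired analysis was possible because each condition has 1 library. The 6 higher names were 10 with TMM or median-of-ratios factors and 12 with a 1.5-fold rule, and stayed between 5 and 9 under the other alternatives. The 28 lower names were 18 with median-of-ratios factors, 13 with a minimum of 50 counts, 46 with a 1.5-fold rule and 12 with a 3-fold rule. With TMM factors they were 20, without miR159a 25, with near-equal names joined 23, and with no minimum 36. The 4 lower families were 1 with TMM, median-of-ratios factors or a 3-fold rule and 7 with a 1.5-fold rule, and miR529 was the 1 higher family throughout. The median log2 ratio of −0.40 became −0.068 with TMM and −0.066 with median-of-ratios factors, −0.26 with totals without miR159a and −0.23 with no count minimum. With near-equal names joined it went further down, to −0.50. Joined names were scaled to their own totals, which kept 66.5% of the counts at 200 mM and 59.8% in the control. This lowers the ratio of every joined name, and of the 23 lower joined names 17 were also lower without joining. In percentage points of counts (200 mM minus control), with names joined and without miR159a in that order, the share of 21 nt names moved to 5.73 and 3.41 (5.52 as reported), that of 24 nt names to 0.149 and 0.182 (0.120), names beginning with U to 2.91 and 1.75 (3.44), and new names to −3.24 and −0.488 (−1.83). The share of the 10 most counted names moved to 2.88 with names joined and reversed to −1.51 without miR159a (1.63), as the most counted name was left out. TMM factors raised every log2 ratio by the same 0.34, so the direction of 31 names just below a ratio of 1 turned, none of them past the rule. Depth limits names of under 100 counts, where intervals span several-fold.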

Other observations

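Of the 141 names under the count minimum, 8 met the size rule below control and 1 above it. Among the 8 were 5 further names of miR171 and the names miR172a and miR172b, chosen after their values were seen. miR171n, miR171p, miR171q and miR171r overlap in sequence with near-equal counts, and so do miR172a and miR172b, so these are not separate values. miR171n had 1 count in the 200 mM library against 9 in the control library and 12 at 50 mM. miR171p, miR171q and miR171r had 0 counts against 8, 7 and 7, and 9 each at 50 mM, and miR171s had 0 against 6. miR172a and miR172b, whose family targets AP2-like factors of phase change, each had 4 counts against 16, a ratio of 0.233 (0.0568 to 0.723). The other arm of hairpin 21, new-21-3p, had 0 counts at 200 mM against 13 in the control and 9 at 50 mM.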
